A study of Mus musculus with 6 samples.

Results

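The potassium channel genes were taken as every row of the deposited expression table whose mouse gene symbol starts with Kcn followed by a lower-case letter. The rule found 57 genes among the 15450 named genes of the table, and 88 of its 26691 Ensembl transcript rows. It takes in the pore-forming subunits of the voltage-gated, calcium-activated, sodium-activated, inward rectifier and tandem-pore channels. It also takes in the auxiliary subunits with a Kcn symbol, the regulator Kcnrg and 1 antisense RNA, Kcnab3os. All 88 rows were found in the GENCODE M21 annotation, which lists 94 protein-coding Kcn genes, of which 56 had a row. No Kcne, Kcnf or Kcnu gene had a row in the table analysed here.

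Potassium channels let potassium leave or enter a cell down its electrochemical gradient, and so set the resting potential, end each action potential and limit firing rate. A voltage-gated channel is built from 4 pore subunits. Auxiliary subunits change its gating or its delivery to the membrane, and modifier subunits that form no channel alone join the pore subunits of others. In the retina, ganglion cells carry Kcna and Kcnq channels at the axon and its initial segment, photoreceptors carry Kcnv2, Müller glia buffer potassium through Kcnj10, and pericytes carry Kcnj8.

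The libraries were made from polyadenylated RNA of live Thy1-positive cells sorted from crushed mouse retina. Mice about 3 to 4 weeks old at the start had adeno-associated virus injected into the eye, with PLAP as cargo in the controls (AAV-Control) and the transcription factor Sox11 in the treated eyes (AAV-Sox11). The virus acted for 2 weeks, and the optic nerve of every eye, control eyes included, was crushed 3 days before sacrifice. There were 3 libraries per group (A, B and C), each pooled from 3 retinas of 3 animals, and the control and Sox11 preparations of a letter were made on the same day. No uninjured or uninjected group was analysed here, and no label gives the promoter that drives the cargo. All values below are the authors' normalized values, summed over the rows of a gene. They equal the deposited whole numbers times 1 factor per library (0.965 to 1.04). The library totals of the whole numbers ran from 10747985 to 11546892, and the factors do not simply follow these totals.

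Sox11, the delivered gene, read 131, 111 and 100.3 in the control libraries A, B and C and 179, 234 and 284 in the AAV-Sox11 libraries. The groups did not overlap, with a log2 fold change of 1.003 ± 0.20 (SE, n = 3 per group) and a limma adjusted p of 0.0504. The libraries are labelled as retinal ganglion cells, but markers of other retinal cells were abundant. The summed rod markers (8 of 8 measured) ran from 37110 to 59050 in the controls and from 23220 to 42420 with AAV-Sox11, against 6901 to 10340 and 8367 to 10820 for the ganglion cell markers (10 of 11 measured). AAV-Control A stood apart, with the highest summed cone, bipolar cell, Müller glia and pericyte markers of the 6 libraries. In addition, 1 direction of difference between libraries, lying almost wholly within the groups, had been removed from the deposited values, so part of the replicate spread is missing from every test below. A sex index (mean log2 value of Xist minus that of 4 Y-linked genes) ran from 5.26 to 6.82 in the controls and from 6.87 to 8.45 with AAV-Sox11, so it did not overlap between the groups.

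The pore of each channel subunit carries a short selectivity filter, the stretch that strips water from potassium ions and gives the channel its name. Its coding sequence is shown for the members on which the results turn, so that they can be compared base by base. Each line gives 45 bases, 5′ to 3′ on the coding strand, with the 15 bases that code for the 5 filter residues in capitals. The search ran over the annotated coding sequence of the transcript rows.

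Kcnb2: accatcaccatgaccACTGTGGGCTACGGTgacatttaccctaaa
Kcnh7: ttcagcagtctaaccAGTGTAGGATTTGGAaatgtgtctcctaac
Kcnh5: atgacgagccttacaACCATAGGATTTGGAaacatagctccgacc
Kcna3: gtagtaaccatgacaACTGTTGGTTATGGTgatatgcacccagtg
Kcnd2: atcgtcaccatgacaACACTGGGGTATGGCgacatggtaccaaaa
Kcnma1: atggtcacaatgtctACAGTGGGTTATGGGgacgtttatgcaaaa

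On GRCm38 (mm10) the Kcnb2 window lies on the plus strand at chr1:15710031-15710075, in exon 2 of the row ENSMUST00000170146. The Kcnh7 window lies on the minus strand at chr2:62777328-62777372, in exon 8 of ENSMUST00000075052. These are coding exons. The Kcnh5 window is at chr12:75087451-75087495 (minus strand), the Kcna3 window at chr3:107037596-107037640 (plus strand) and the Kcnma1 window at chr14:23528398-23528442 (minus strand), while that of Kcnd2 spans a splice junction.

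Kcnh5 and Kcnh7 shared 29 of the 45 bases, and 12 of the 15 filter bases. Kcnb2 and Kcnh7, which both fell, shared 25 of the 45. Across the family, 43 of the 51 genes with a protein-coding row held a filter of this kind. Of the 37 genes with 1 filter, 31 read glycine, tyrosine, glycine and 6 read glycine, phenylalanine, glycine. Those 6 were the 5 Kcnh genes with a filter and Kcnj11. The 6 tandem-pore genes held 2 filters each, as their name says. Kcnh1 and Kcnj8 held none: the only Kcnh1 row, ENSMUST00000151152, has 3 exons and codes for 98 residues with no starting methionine, and the Kcnj8 row codes for 127 residues. Values of these genes therefore describe a partial transcript model rather than a whole channel. The second coding row of Kcnh7, ENSMUST00000112454, codes for 522 residues and ends before the filter that the first row, of 1195 residues, contains.

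To set genes side by side, the value of each row, noncoding rows included, was divided by its length in kilobases and scaled to the same library total. Such a scale assumes even coverage along the transcripts, which was not checked. On it, the highest member over all 6 libraries was Kcna1, a delayed rectifier of axons. Its level was 81.9 ± 13.9 (SD, n = 3) in the controls and 92.1 ± 2.01 with AAV-Sox11. Kcnc1, which lets neurons fire fast, followed at 78.2 ± 1.70 and 70.4 ± 2.34 on this length-scaled measure. Kcnd3, an A-type channel of the soma and dendrites, read 84.4 ± 22.9 and 64.1 ± 7.69 on the same scale. In the controls these neighbours did not differ beyond their spread.

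Further members of high level were Kcnh7, an ERG-type channel, Kcnj9, a G protein-gated inward rectifier, and Kcnh5, an EAG-type channel. Their levels over all 6 libraries were 55.3, 53.6 and 49.1 on the same length-scaled measure. The order on this scale differed between the groups. Kcnh7 read 66.9 ± 0.905 in the controls, above Kcnj9 at 54.4 ± 3.11. With AAV-Sox11, Kcnh7 read 43.7 ± 3.66, below Kcnj9 at 52.9 ± 0.910. Before division by length, Kcnh7 stood above Kcnj9 in both groups. Its means were 8695 in the controls and 6173 with AAV-Sox11, against 2309 and 2346 for Kcnj9. At the low end, Kcnk12, Kcng2, Kcnq1, Kcng3 and Kcnh1 stood at 0.684 to 1.18 over the 6 libraries, and several of these cannot be ranked beyond their spread.

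**Figure D1:**
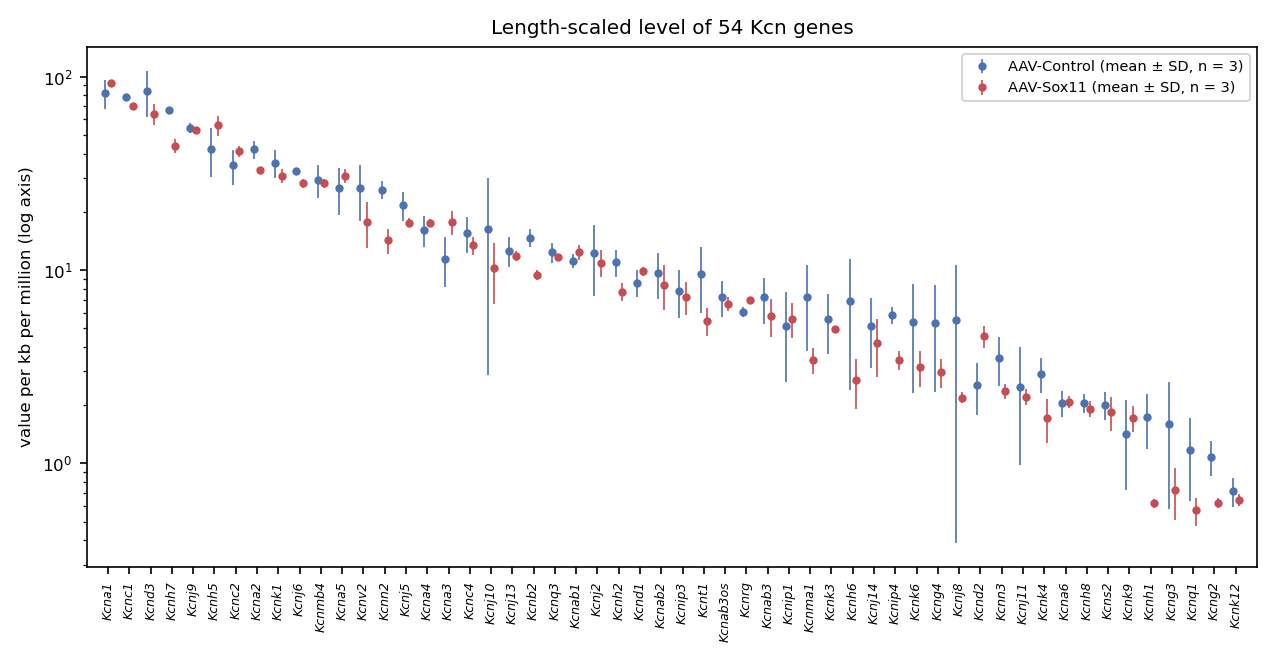
Length-scaled level (value per kilobase at a common library total, log axis) of 54 of the 57 Kcn genes in AAV-Control (blue) and AAV-Sox11 (red) libraries, as mean ± SD of 3 libraries, ordered by the mean over all 6. Levels ran from 87.0 for Kcna1 to 0.684 for Kcnk12, and for Kcnh7 and Kcnj9 the order between them on this scale turned round between the groups.

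To ask how AAV-Sox11 changed these genes after crush, limma compared the log2(value + 1) of each gene between the groups over all 15450 genes. Its p-values set the group difference against the replicate variation left in the deposited values. Since 1 direction of that variation had been removed, they can be too small. With the removed direction as a covariate, no gene of the 15450 had an adjusted p under 0.05. In the fit without it, 4 of the 57 members fell and none rose at a Benjamini-Hochberg adjusted p under 0.05. That was 7.02% of the members for the lower direction, beside 1.52% of all genes tested, and 0% for the higher one, beside 0.796%. At an unadjusted p under 0.05, 14 members were lower and 5 higher (24.6% and 8.77%), against 11.8% and 12.6% of all genes. The values of the groups did not overlap for 17 members on the lower side and 4 on the higher side (29.8% and 7.02%), beside 14.4% and 16.2% of all genes. The median log2 fold change over the members was -0.13, beside 0.03 over all genes, and 38 of the 57 were negative (66.7%, beside 46.2% of all genes). Markers of bipolar cells (7 of 8 measured, all 7 with negative log2 fold changes) summed to 11370, 7551 and 7920 in AAV-Control A, B and C. With AAV-Sox11 they summed to 6193 to 7210. Log2 fold changes were also negative for 7 of 8 rod, 5 of 5 cone, 3 of 3 microglial and 2 of 2 horizontal cell markers. The same held for 3 of 5 Müller glia, 2 of 6 amacrine cell and 3 of 10 ganglion cell markers. The part of these cell types in the counts above was not tested. In bulk libraries such as these, fewer cells of a type and less RNA per cell cannot be told apart.

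Because the labels pair the libraries by day, the same fit was made with the replicate letter as a block. It called 6 members lower, beside 2.68% of all genes, and 2 higher, beside 2.09%. Kcnt1 (adjusted p = 0.0312) and Kcnv2 (0.0414) joined the 4 on the lower side, and Kcna3 (0.0472) was among those on the higher side. Within days, 24 members were lower in all 3 pairs and 8 were higher in all 3 pairs (42.1% and 14.0%), beside 24.3% and 28.4% of all genes.

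**Figure D2:**
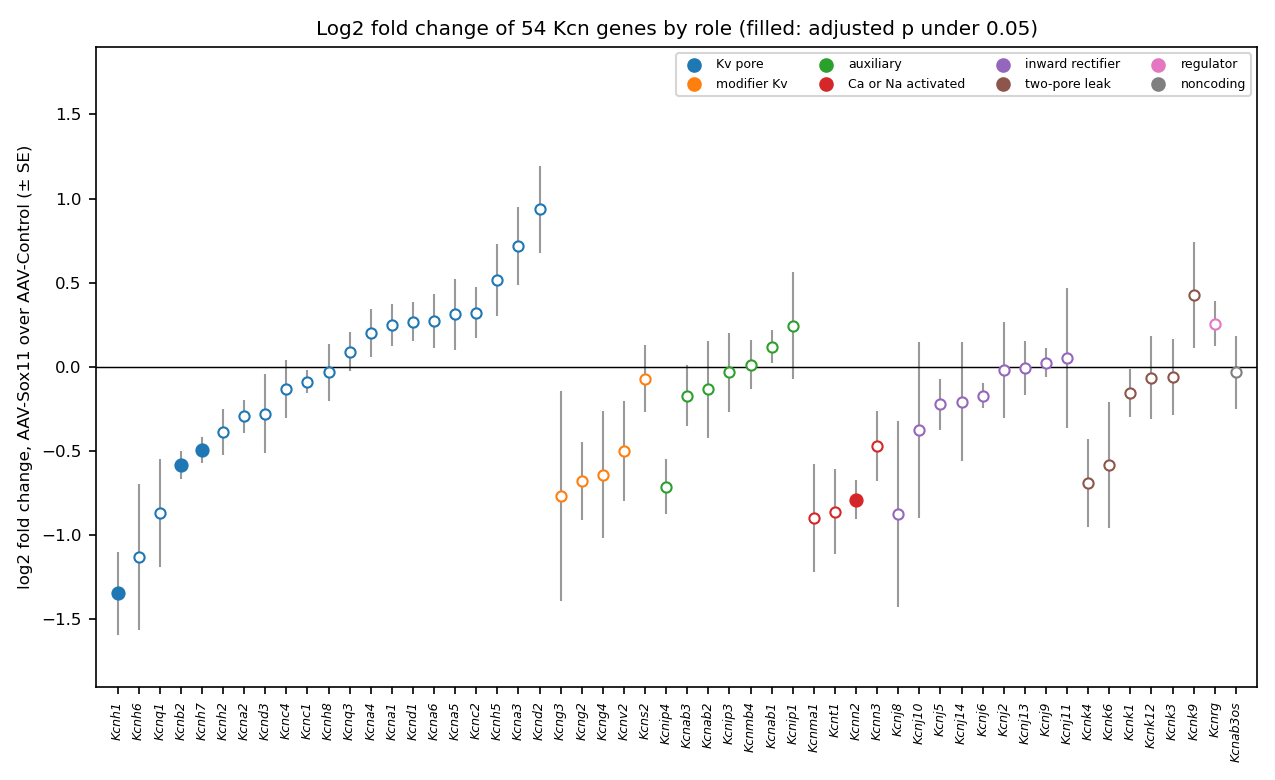
Log2 fold change (AAV-Sox11 over AAV-Control, ± SE, n = 3 libraries per group) of 54 of the 57 Kcn genes, coloured by role and ordered within each role, with filled points for adjusted p under 0.05 in limma. The 4 filled points are Kcnh1, Kcnb2, Kcnh7 and Kcnn2, all below 0, and the calcium- or sodium-activated and modifier groups lie wholly below 0.

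Among the 24 pore subunits of voltage-gated channels, 12 were lower and 12 higher with AAV-Sox11, beside 46.2% and 53.8% of all genes. The 3 that passed the test all fell (12.5% of the 24, beside 1.52% of all genes). Kcnb2, a delayed rectifier pore, read 1565, 1423 and 1607 in AAV-Control A, B and C and 1069, 993 and 999.5 in AAV-Sox11 A, B and C. Every Sox11 library was below every control. It fell by 0.58 ± 0.08 on the log2 scale, that is, it was 1.50-fold lower (limma adjusted p = 0.0220). Its row spans chr1:15312452-15723750 on the plus strand, and a second coding row of the gene, with the same coding length, had a log2 fold change of -0.56.

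The 6 Kcnh genes (the EAG, ERG and ELK channels) held the other 2 voltage-gated calls (33.3% of the 6, beside 1.52% of all genes). Kcnh7 was the most abundant of them per length in the controls and read 9266, 8555 and 8264 there, against 6424, 6220.3 and 5875 with AAV-Sox11. No library of one group reached the other. It was 1.41-fold lower, a log2 fold change of -0.49 ± 0.08 (limma adjusted p = 0.0287). Kcnh1, an EAG channel, read 136, 74.5 and 85.9 in the controls and 37.5, 35.3 and 38.2 with AAV-Sox11. The Sox11 libraries lay close together, and AAV-Control A was the highest. It fell by 1.34 ± 0.25 on the log2 scale, 2.54-fold lower (adjusted p = 0.0426). Its row, at chr1:192434740-192510159 on the plus strand, overlaps the span of Hhat on the other strand, and the Kcnh7 row, at chr2:62693414-63184278 on the minus strand, overlaps those of Gca and Gm13569. Rows of Kcnb2, Kcnn2 and Kcna3 likewise overlap other annotated genes, such as Gm25227, Gm10540 and Gm27008. Only spans were compared, introns included, and shared exons were not looked for. No source used here states whether reads were counted by strand. Whether reads of these neighbours were counted with the channel genes is therefore not known.

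Of the remaining Kcnh genes, Kcnh2 and Kcnh6, the other ERG channels, were lower without overlap but did not pass the test. Kcnh2 read 337 to 472 in the controls and 296 to 318 with AAV-Sox11 (log2 fold change -0.39, adjusted p = 0.146). Kcnh6 read 450, 142 and 171 in the controls and 77.2, 95.6 and 139 with AAV-Sox11 (-1.13 ± 0.43, adjusted p = 0.167). AAV-Control A held much of that difference, since without it the log2 fold change was -0.62. Kcnh5, an EAG channel like Kcnh1, lay on the other side at 1862, 2456 and 1326 in the controls and 2492, 2998 and 2367 with AAV-Sox11. It was higher on every day, while the 2 groups overlapped through AAV-Control B (log2 fold change 0.51 ± 0.21, adjusted p = 0.193). Kcnh8, an ELK channel, had a log2 fold change of -0.03.

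**Figure D3:**
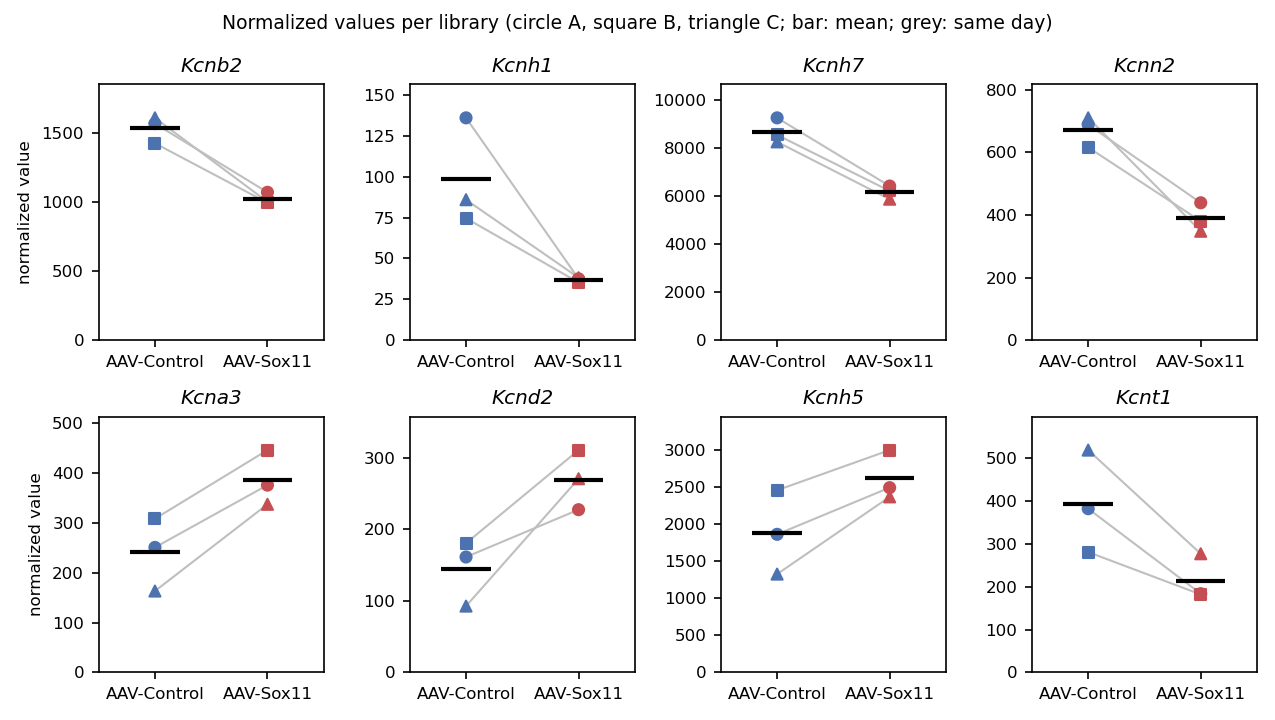
Normalized value in each library (circle A, square B, triangle C; black bar, group mean; grey line, same-day pair) for 8 Kcn genes, each axis starting at 0. In the upper row all Sox11 libraries lie below all controls for the 4 genes that passed the test, and in the lower row Kcna3 and Kcnd2 lie above and Kcnt1 below without overlap while Kcnh5 overlaps.

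The largest positive log2 fold change of the family belonged to Kcnd2, a pore subunit of the A-type current that delays firing. It read 161, 180.4 and 92.6 in the controls and 227, 310 and 270.5 with AAV-Sox11. The groups did not overlap, and the log2 fold change was 0.94 ± 0.26 (adjusted p = 0.0891, and 0.0635 with the block). It was 0.33 with the sex index as a covariate (adjusted p = 0.503). Kcnd1 overlapped between the groups at a log2 fold change of 0.27. Kcnd3, the most abundant of the 3 per length, read 7194, 7449 and 4098 in the controls and 4194, 5614 and 5234 with AAV-Sox11, and so overlapped (-0.28 ± 0.23).

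Kcna3, a delayed rectifier also known from T cells and microglia, read 250.5, 308 and 163 in the controls and 375, 445 and 337 with AAV-Sox11. The groups did not overlap (log2 fold change 0.72 ± 0.23, adjusted p = 0.124, and 0.0472 with the block). The adjusted p was 0.107 when the removed direction joined the block. The log2 fold change was 0.46 without AAV-Control C and 0.33 with the sex index as a covariate (adjusted p = 0.612). The summed microglial markers (3 of 5 measured) ran from 939 to 1747 in the controls and from 613 to 837 with AAV-Sox11, with all 3 log2 fold changes negative. The part of microglia or T cells in the Kcna3 values was not tested. Kcna1, the leading axonal channel, overlapped between the groups (0.25 ± 0.12, adjusted p = 0.270), whereas Kcna2, its usual partner at the juxtaparanode, was lower without overlap. Kcna2 read 4948 to 6081 in the controls and 4197 to 4536 with AAV-Sox11 (-0.29 ± 0.10, adjusted p = 0.126). Kcna4, Kcna5 and Kcna6 overlapped, with log2 fold changes of 0.20 to 0.31. No Kcna6 row is annotated as protein coding.

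The fast delayed rectifiers of the Kcnc subfamily gave no call, beside 1.52% of all genes called lower and 0.796% higher. Kcnc1 was lower without overlap by a small margin, 5033 to 5384 against 4790 to 5004 (log2 fold change -0.09, adjusted p = 0.454). Kcnc2, known from starburst amacrine and ganglion cells, had a log2 fold change of 0.32 (adjusted p = 0.239) and Kcnc4 one of -0.13. Kcnq3, an M-current gene, overlapped between the groups at 0.09. Kcnq1, better known from heart and epithelia, was rare here at 27.5 to 57.9 and 16.6 to 23.1 (-0.87 ± 0.32, adjusted p = 0.155). Its row overlaps the antisense RNA Kcnq1ot1.

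The 4 channels opened by internal calcium or sodium were all lower in every library with AAV-Sox11 than in any control, as were 14.4% of all genes, and 1 passed the test, as did 1.52% of all genes. Kcnn2, a small-conductance calcium-activated channel that shapes the afterhyperpolarization, read 688, 616 and 710.2 in the controls and 439, 380.1 and 348 with AAV-Sox11. The groups lay far apart against their spread. It fell by 0.79 ± 0.12 on the log2 scale, 1.73-fold lower (limma adjusted p = 0.0241). None of its 4 rows is annotated as protein coding. Kcnn3, its relative, read 94.1 to 144 and 71.7 to 84.5 (-0.47 ± 0.21, adjusted p = 0.213).

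Kcnt1, the sodium-activated channel, read 382, 280.4 and 518 in the controls and 183, 182 and 277 with AAV-Sox11. The highest Sox11 value was just under the lowest control, and each day showed the same direction (-0.86 ± 0.25, adjusted p = 0.102, and 0.0312 with the block). All 3 Kcnt1 rows are annotated as retained introns and none as protein coding. Kcnma1, the large-conductance calcium-activated pore, read 392, 151 and 227 in the controls and 147, 116 and 119.7 with AAV-Sox11. AAV-Control A was far above the rest, and without it the log2 fold change moved from -0.90 to -0.54. Kcnmb4, the neuronal partner of Kcnma1, had a log2 fold change of 0.01 ± 0.14, and its sign turned under 3 other scalings of the libraries.

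All 5 modifier subunits had negative log2 fold changes, beside 46.2% of all genes. None passed the test in the fit without a block, beside 1.52% of all genes called lower and 0.796% higher. Kcnv2, which gives the photoreceptor current its shape, read 1860, 1690 and 921 in the controls and 1207, 1163 and 727 with AAV-Sox11. It was lower on each day, while AAV-Control C fell among the Sox11 values (-0.50 ± 0.30, adjusted p = 0.337, and 0.0414 with the block). The log2 fold change was -0.82 without AAV-Control C, -0.31 without AAV-Control A and -0.27 without AAV-Sox11 C. The summed rod markers stood at 59050, 46230 and 37110 in the controls and 42420, 34600 and 23220 with AAV-Sox11, also lower on each day, and their part in the Kcnv2 values was not tested. Kcng2 and Kcng3 were rare, with log2 fold changes of -0.68 and -0.77. Kcng4 read 368 in AAV-Control A and 116 to 184 in the other 5 libraries, and its log2 fold change moved from -0.64 to -0.21 without that library. Kcns2 overlapped at -0.07.

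Among the 7 auxiliary genes, none passed the test at the level of the gene, beside 1.52% of all genes called lower and 0.796% higher. Kcnip4, a calcium sensor that binds Kcnd pores, came nearest at 149.5, 173 and 137 in the controls and 80.3, 95.5 and 104 with AAV-Sox11. Its groups did not overlap (-0.71 ± 0.16, adjusted p = 0.0633). Kcnip1 and Kcnip3, of the same kind, overlapped between groups at 0.24 and -0.03. The beta subunits Kcnab1, Kcnab2 and Kcnab3 lay between -0.17 and 0.12 and overlapped. No row of Kcnab1 or Kcnab2 is annotated as protein coding, and the only Kcnab2 row is 311 bases long. Kcnab3os, the antisense RNA of Kcnab3, had a log2 fold change of -0.03. Without a stated strand it is not known whether reads of the 2 genes were kept apart. Kcnrg, which hinders the assembly of voltage-gated channels, read 108 to 126 in the controls and 136 to 145 with AAV-Sox11, with no overlap (0.26 ± 0.13, adjusted p = 0.279); its row overlaps Dleu2 on the other strand.

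None of the 9 inward rectifiers passed the test, beside 1.52% of all genes called lower and 0.796% higher. Kcnj9, Kcnj6 and Kcnj5, the G protein-gated members, stood highest of the group per length. Kcnj6 read 1079 to 1145 and 946 to 1018 with no overlap (-0.17 ± 0.08, adjusted p = 0.218), while Kcnj9 and Kcnj5 overlapped at 0.03 and -0.22. Kcnj10, the potassium-buffering channel of Müller glia, and Kcnj8, of pericytes, were highest in AAV-Control A. Kcnj10 read 1929 there and 422 to 841 in the other 5 libraries, beside Müller glia markers (5 of 6 measured) that summed to 15110 there and 6338 to 9050 elsewhere. Its log2 fold change was -0.38 ± 0.52 over all libraries and 0.27 without AAV-Control A.

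Kcnj8 showed the same library. It read 289 in AAV-Control A and 54.3 to 63.7 in the other 5, beside pericyte and endothelial markers that summed to 15630 there and 2924 to 6187 elsewhere. Of that list only Rgs5 and Cspg4, both pericyte genes, had a row, and Pecam1, Cldn5 and Pdgfrb had none. The log2 fold change was -0.87 ± 0.55 (adjusted p = 0.363) and moved to -0.15 without that library. Kcnj2, the classical inward rectifier, and Kcnj13, of pigment epithelium and glia, had log2 fold changes of -0.02 and -0.01, and Kcnj11 and Kcnj14 overlapped between the groups.

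**Figure D4:**
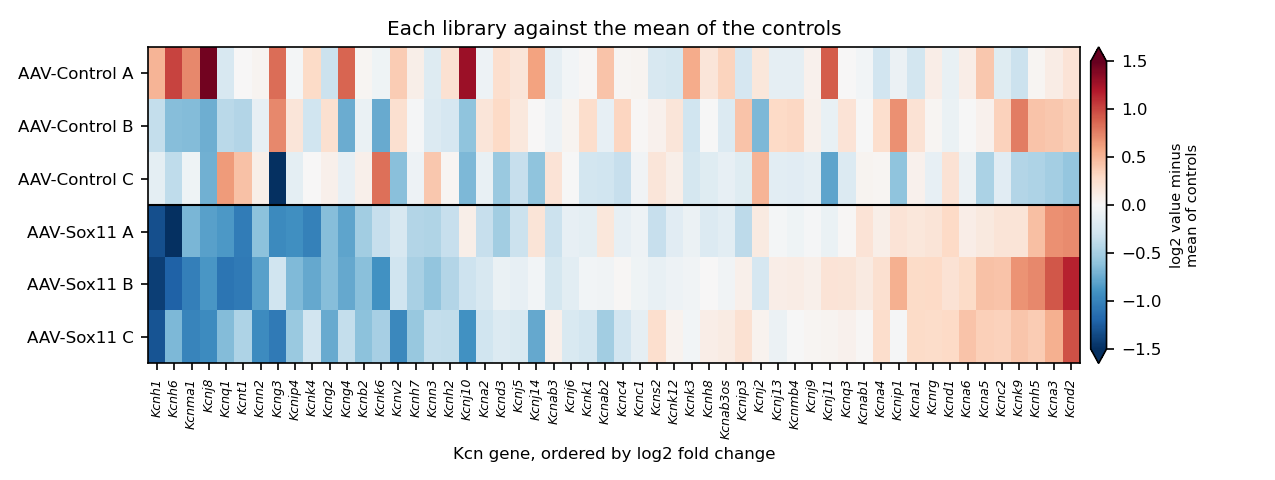
Log2(value + 1) of 54 of the 57 Kcn genes in each of the 6 libraries minus the mean of the 3 controls, with genes ordered by log2 fold change (red, above the control mean; blue, below). AAV-Control A is red for Kcnj8, Kcnj10, Kcnh6, Kcnma1 and Kcng4, while the 3 Sox11 libraries are blue for Kcnh1, Kcnb2, Kcnh7 and Kcnn2.

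The 6 tandem-pore genes, which carry the resting leak, gave no call either, and all 6 overlapped between the groups. Of all genes, 1.52% were called lower and 0.796% higher, and 14.4% and 16.2% did not overlap. Kcnk1, the most abundant of them per length, read 722 to 1043 and 719 to 849 (-0.15 ± 0.14, adjusted p = 0.536). Kcnk4, a mechanically gated member, read 45.1 to 68.0 in the controls and 27.1 to 45.2 with AAV-Sox11. Its highest Sox11 value just passed its lowest control (-0.69 ± 0.26, adjusted p = 0.162). Kcnk9 had the only positive log2 fold change of the group, 0.43 ± 0.32. Kcnk3, Kcnk6 and Kcnk12 lay between -0.58 and -0.06.

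Fitted row by row over all 26691 rows, 6 of the 88 Kcn rows were lower at a limma adjusted p under 0.05, beside 1.46% of all rows, and none was higher. They were 1 row each of Kcnb2, Kcnh1, Kcnh7 and Kcnip4 and 2 of Kcnn2. Kcnip4 is the member where the rows differed most in kind. The row ENSMUST00000175660, which codes for 225 residues and starts inside the span of the longer row, fell by 1.66 ± 0.25 on the log2 scale (adjusted p = 0.0271). The longer row ENSMUST00000087395, of 250 residues, had a log2 fold change of -0.47 ± 0.18 (adjusted p = 0.177). The difference between the 2 rows was not tested. Kcnh7 showed a like order, with -0.49 for the whole channel and -1.17 for the row that ends before the filter (adjusted p = 0.0989). That row was rare, averaging 22.3 in the controls and 8.91 with AAV-Sox11, beside 8581 and 6122 for the whole channel. How reads were shared among the rows of a gene is not stated.

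**Figure D5:**
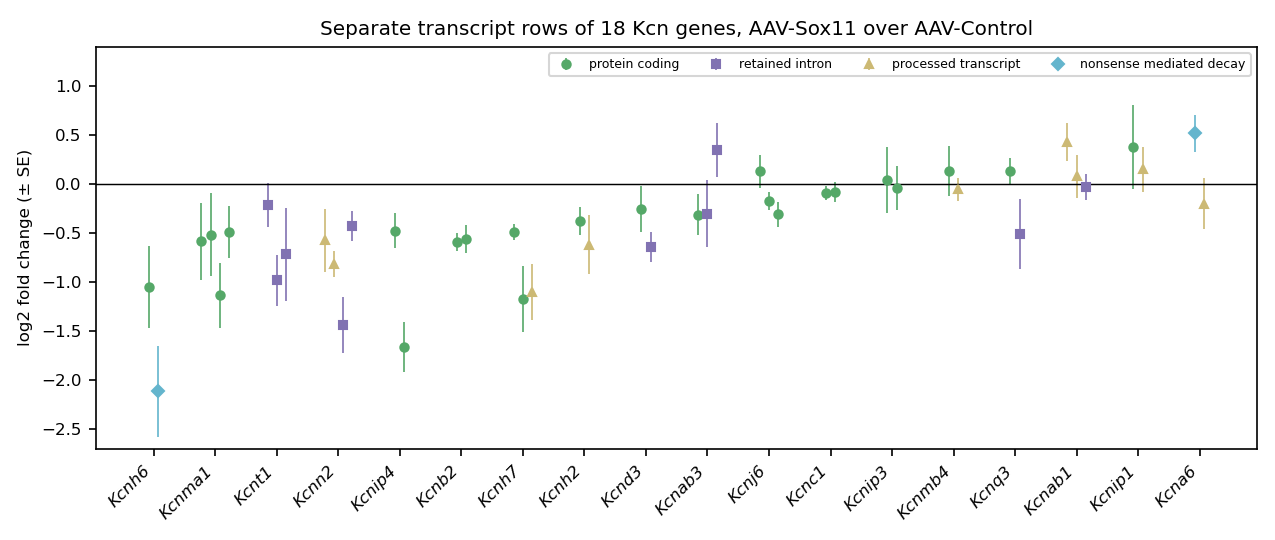
Log2 fold change (± SE) of each transcript row for 18 of the 19 Kcn genes with more than 1 row, by annotated row type. The lowest point is the decay-targeted row of Kcnh6 at -2.11, followed by the shorter Kcnip4 row at -1.66, and the difference between the rows of a gene was not tested. The Kcnh6 row was rare, at 11.8 to 31.1 in the controls and 2.10 to 7.04 with AAV-Sox11. It did not pass the test (limma adjusted p = 0.0590).

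In the authors' deposited table, 13 of the 88 Kcn rows were lower and 1 was higher at a false discovery rate under 0.05, beside 4.91% and 1.93% of all rows. That table's call for a higher row was Kcnd2, with the authors' log2 fold change of 0.90. Its lower calls took in all 3 Kcnh7 rows and both Kcnh6 rows, besides rows of Kcnb2, Kcnh1, Kcnn2, Kcnip4, Kcnma1, Kcnt1 and Kcnd3, according to the authors' deposited table.

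Partners of these channels that carry no Kcn symbol were read from a list of 33 genes, of which 27 were measured. In limma 3 of them fell and none rose, beside the 1.52% and 0.796% of all genes above. Dpp6, which joins Kcnd pores and speeds their gating, read 463, 489 and 589 in the controls and 297, 252 and 248 with AAV-Sox11. It fell by 0.94 ± 0.13 on the log2 scale (adjusted p = 0.0208). The log2 fold changes of the Kcnd pores were 0.27 (Kcnd1), 0.94 (Kcnd2) and -0.28 (Kcnd3), and none of these passed the test. Dlg2, a scaffold of Kcna complexes, fell by 0.48 (adjusted p = 0.0276), and Ank3, which anchors Kcnq channels at the axon initial segment, fell by 0.47 (adjusted p = 0.0294). Sptbn4, of the same anchoring complex, did not pass at -0.57 (adjusted p = 0.0726). Neither did Lrrc26, a partner of Kcnma1, at -0.74 (adjusted p = 0.0562, and 0.0492 with the block), or Gng2, a G protein subunit that gates Kcnj channels, at 1.16 (adjusted p = 0.0679, and 0.0287 with the block). The blocked fit called 5 of the partners lower and 2 higher, beside the 2.68% and 2.09% of all genes above, with Cntn2 (-0.44, adjusted p = 0.0458) among the lower and Lgi1 (0.83, adjusted p = 0.0445) among the higher.

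Sox11 binds DNA through an HMG box, for which the motifs ACAAAG and ACAATG on either strand were searched in RefSeq promoter windows of 250 bases before the transcription start (GRCm38.p6). Of the members, 37 had a window. A match was found in 8 of their 50 windows (16%), beside 25.2% of all 32851 windows. The windows of Kcnh7, the most abundant member that fell, and of Kcna3, higher in the blocked fit, are shown as examples. Both adjoin the start of a measured row, as do windows of other members. Matches also lay in windows of Kcnip3, Kcnk1, Kcnmb4 and Kcnrg, with log2 fold changes of -0.03, -0.15, 0.01 and 0.26. The windows of Kcnd2 and Kcnc2, with positive log2 fold changes of 0.94 and 0.32, held no match. Kcnb2 had no window, and none is reported here for Kcnn2. Whether a match goes with a change was not tested. Capitals mark a match.

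Kcnh7: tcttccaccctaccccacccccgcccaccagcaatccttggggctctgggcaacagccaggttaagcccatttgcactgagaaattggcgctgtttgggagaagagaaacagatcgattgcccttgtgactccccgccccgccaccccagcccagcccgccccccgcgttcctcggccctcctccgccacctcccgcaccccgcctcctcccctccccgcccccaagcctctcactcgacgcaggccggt
Kcna3: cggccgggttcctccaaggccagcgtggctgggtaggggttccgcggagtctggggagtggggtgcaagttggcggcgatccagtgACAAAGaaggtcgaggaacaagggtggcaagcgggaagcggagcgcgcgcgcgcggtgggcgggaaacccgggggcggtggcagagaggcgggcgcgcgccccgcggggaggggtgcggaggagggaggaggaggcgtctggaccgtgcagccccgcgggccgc

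The Kcnh7 window, on the minus strand at chr2:63184288-63184537, held no match to these letters. In the Kcna3 window, on the plus strand at chr3:107035912-107036161, ACAAAG begins 164 bases before the start. The Kcnh1 window at chr1:192190527-192190776 lies 243963 bases upstream of the measured Kcnh1 row, and so is not the promoter of that row.

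None of the 4 was called without AAV-Control A or without any single Sox11 library, nor with the removed direction or the sex index as a covariate. All 4 were called without AAV-Control B. Without AAV-Control C, Kcnh1 missed the threshold (adjusted p = 0.0524) and Kcng3 passed it as lower. With the sex index, the log2 fold changes were -0.48 for Kcnb2, -1.46 for Kcnh1, -0.50 for Kcnh7 and -0.58 for Kcnn2, with adjusted p between 0.141 and 0.169. Over every alternative run, the direction of these 4 genes did not change.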

How the data were processed

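RNA from 6 libraries of sorted Thy1-positive mouse retinal cells was sequenced after low-input amplification. Per the submitters' processing notes, CASAVA 1.8.2 and edgeR (version not named) were used, with build mm10. The sources used here name no aligner, counter, strand setting or annotation. A single table of transcript rows was deposited. Its whole-number columns are treated as a score, that is, adjusted values rounded by the authors before deposit, since 1 direction between libraries held an SD of 9.48e-05 natural log units, beside 0.0872 for the next. AAV-Sox11 B carried 57.7% of that direction. The deposited normalized columns are a signal that equals the whole numbers times 1 factor per library (0.965 to 1.04). The authors also deposited p-values and log2 fold changes, which are printed only as theirs. Rows with no gene name (357, holding 0.422% to 0.517% of each library's total) were left out.

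Rows were summed per gene. Because the values are not read counts, log2(value + 1) was fitted with limma-trend (limma 3.58.1, R 4.3.3), two-sided, with Benjamini-Hochberg adjustment over 15450 genes and a minimum mean value of 1, which all 57 members passed. Fold changes are on that scale, which understates changes of low genes. Precision is limited by 3 pools per group, and read depth cannot be recovered from adjusted values. The members, lists and tests were chosen with earlier results of these data known. Named genes were every called member, the member of highest mean value in each subfamily, the 5 largest changes in each direction without overlap, and channels tied in textbooks to 1 retinal cell type. Other members were chosen for description by role. A few members are counted but not reported here by name. Alternatives changed the scaling, pseudocount, filter, variance prior, row choice, covariates and libraries. The code was tested on simulated data. Same-letter libraries were made on the same day per the labels, and the correlations of their deviations were 0.0025 for A, 0.793 for B and 0.236 for C, which is the pairing behind the blocked fit. Gene positions, coding sequences and lengths came from GENCODE M21 (GRCm38), read with Python 3.11.15, and promoters from RefSeq (GRCm38.p6). Lengths could be given for 97.8% of rows.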

Additional observations from a re-analysis of the deposited data

How the results depend on the processing

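The number of members called lower was 4, and became 0 once the removed direction entered the model, 0 when the replicate block joined it there, 0 with the sex index, and, in alternatives chosen after seeing the data, 0 without both libraries of day A, of day B or of day C. It ranged from 0 to 4 when single libraries were left out. No gene of any kind was called in either direction under the removed direction alone, the sex index, or without AAV-Sox11 A, B or C. The number called higher was 0, became 2 with the replicate block and 0 again when the removed direction joined it, and ranged from 0 to 1 with single libraries left out, the 1 being Kcnc2 without AAV-Control B (adjusted p = 0.0452). The replicate block gave 6 lower, and library size alone 5. The median log2 fold change of the members stayed negative, from -0.24 to -0.07. The causes were not tested.

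Over these settings the adjusted p ranged from 0.0167 to 0.168 for Kcnb2, 0.0324 to 0.214 for Kcnh1, 0.0164 to 0.205 for Kcnh7 and 0.0206 to 0.168 for Kcnn2. Of the genes the naming rule chose, 8 that had not passed the test changed sign in some setting. So did Kcna5, Kcnab1, Kcnab2, Kcnab3os, Kcnc4, Kcnh8, Kcnip1, Kcnj11, Kcnj14, Kcnk3, Kcnk6, Kcnk9 and Kcnk12, which had not passed it either. With the sex index, Kcnj2 became 0.46, Kcnj9 -0.11, Kcnmb4 -0.17 and Kcnq3 -0.12. Kcnj9 became -0.0382 and Kcnmb4 -0.051 by library size, -0.0226 and -0.0354 by upper quartile, and Kcnmb4 -0.0122 by median of ratios and -0.0522 with 1 row per gene. Without both libraries of day A, Kcnip3 became 0.0239, Kcnj10 0.0355 and Kcnmb4 -0.0145; without day B, Kcnip3 0.13 and Kcnj13 0.0896; without day C, Kcnj2 0.20, Kcnj9 -0.0422, Kcnmb4 -0.0634 and Kcnq3 -0.0020. With single libraries left out, Kcnj10 ranged from -0.71 to 0.27, Kcnj2 from -0.36 to 0.23, Kcnmb4 from -0.0733 to 0.17, Kcnip3 from -0.16 to 0.18, Kcnj13 from -0.088 to 0.14, Kcnj9 from -0.0426 to 0.0641, Kcnq3 from -0.0144 to 0.19 and Kcns2 from -0.23 to 0.0658. A minimum mean value of 50 left 48 members, without Kcnq1.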
